A study of Homo sapiens with 16 samples.

Results

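PLK2 and PLK3, the polo-like kinase genes that respond to stress, were followed in A549 cells after irradiation. Their members were the array features annotated to either symbol, which gave 1 feature for PLK2 (Entrez gene 10769) and 1 for PLK3 (Entrez gene 1263), so that these are 2 of the 18334 named genes of the series. A549 is an established human lung adenocarcinoma line. Cells received X-rays or C12, a beam of carbon ions that ionises densely along its track, and were taken 1h or 4h afterwards. Per the labels, each of 16 separate cultures was divided between an irradiated and a control plate, and both RNAs, labelled with Cy3 and Cy5, were compared on 1 Agilent array. The 4 groups, C12 1h, C12 4h, X-ray 1h and X-ray 4h, had 4 arrays each. RNA was pooled from 2 experiments per the labels' protocol. How these pools relate to the 16 cultures is not stated there, so it is not settled whether the 4 arrays of a group are independent replicates, and p-values measure only the spread between them. No dose was found in the sources used here, so a difference between C12 and X-rays describes these exposures, not the qualities at equal dose. The values are ratios, so no level of a gene or of a cell type marker can be had.

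Polo-like kinases are serine/threonine kinases with a C-terminal polo-box domain that binds phosphorylated partners. PLK1 drives entry into and passage through mitosis, and PLK4 controls the duplication of centrioles. PLK2 (also called SNK) and PLK3 (also called FNK or PRK) are short-lived kinases whose transcripts were first described as early responses to serum. Both genes are also induced by DNA damage. PLK2 is a known transcriptional target of p53. PLK3 phosphorylates p53 and other proteins of the damage response, and is widely listed among p53 targets. In several tumour types both have been discussed as suppressors of growth.

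The promoters are shown because both genes rose 4h after X-rays and are often listed as p53 targets. Each window runs from 250 bases before to 50 bases after the start of the gene, from RefSeq sequence of GRCh38.p14, written 5′ to 3′ on the strand of the gene. That of PLK2 is chr5:58460037-58460336 on the minus strand and that of PLK3 is chr1:44800127-44800426 on the plus strand. Capitals mark a match to 1 of 5 motifs that were searched on both strands: the p53 half-site, the CArG box of serum response factor, the cyclic AMP element TGACGTCA, the AP-1 element TGANTCA and the CHR element TTTGAA of late cell cycle genes.
PLK2: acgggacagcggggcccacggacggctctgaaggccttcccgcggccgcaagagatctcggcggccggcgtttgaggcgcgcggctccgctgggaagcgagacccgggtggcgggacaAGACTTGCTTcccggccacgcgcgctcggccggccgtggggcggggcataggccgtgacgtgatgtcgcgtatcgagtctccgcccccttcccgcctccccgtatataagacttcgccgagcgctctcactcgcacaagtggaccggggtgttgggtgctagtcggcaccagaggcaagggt
PLK3: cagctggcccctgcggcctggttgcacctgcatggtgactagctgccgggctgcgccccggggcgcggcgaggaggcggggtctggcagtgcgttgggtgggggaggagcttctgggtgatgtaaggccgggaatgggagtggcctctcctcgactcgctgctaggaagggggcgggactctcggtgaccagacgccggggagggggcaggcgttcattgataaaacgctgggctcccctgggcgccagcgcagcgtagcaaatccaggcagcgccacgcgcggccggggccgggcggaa
The window of PLK2 held 1 p53 half-site, AGACTTGCTT, whose first base lies at position -132 from the start (chr5:58460209-58460218). None of the letters of the 5 motifs was found in the window of PLK3. Among 35116 promoter windows of this length, 6.63% held the p53 half-site, 1.29% the CArG box, 1.85% the cyclic AMP element, 7.71% the AP-1 element and 15.2% the CHR element. Both windows were rich in G and C, at 70.0% for PLK2 and 71.0% for PLK3, against a median of 58.7% over all windows. A match is a description of letters, not of binding.

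The deposited log2 ratios carry no settled direction. Replicates 1 and 2 of every group were multiplied by -1, which equals the product of the labelled dye codes of both qualities and likely gives irradiated over control. Deposited C12 arrays with the same labelled dye ran against each other in 8 of 12 pairs (r from -0.869 to 0.853 over all features, median -0.831), so the labelled dye does not set their sign. After the turn, the same pairs correlated at 0.817 to 0.869 and those of opposite dye at -0.850 to -0.801, so C12 arrays ran together within a dye and against each other across dyes. X-ray arrays of the same dye correlated at -0.168 to 0.363 after the turn. As deposited, PLK3 read -2.28, -1.49, 1.29 and 1.29 on replicates 1 to 4 of X-ray 1h, so its sizes were alike and its sign changed between the second and the third replicate. The sign was chosen earlier on these data with a list of p53 targets that included PLK3, so the rise of PLK3 is not independent evidence of its direction. With the inverse sign, each rise below is a fall of the same size and p. Each rank from the highest is then a rank from the lowest. Sizes and p-values also rest on the sign the rule gives replicates 1 and 2 relative to 3 and 4. At X-ray 1h the limma mean of PLK3 was -0.298 as deposited and -0.197 turned by the labelled dye, and neither passed. The rule gave 1.59, so the limma p-values of PLK3 are not independent evidence either. If the first 2 replicates of a group differed from the last 2 for another reason, that and a response cannot be told apart. Values below are turned log2 ratios unless a dye term is said to be taken off.

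PLK3 stood high on every X-ray array. At X-ray 1h its log2 ratio was 2.28 on replicate 1, 1.49 on replicate 2, 1.29 on replicate 3 and 1.29 on replicate 4. At X-ray 4h it was 1.41, 1.06, 1.41 and 1.28 on replicates 1 to 4. All 8 values were above 1, and the arrays of both times overlapped. The mean was 1.59 ± 0.47 at 1h (SD, n = 4) and 1.29 ± 0.16 at 4h. PLK3 rose 3.01-fold at X-ray 1h (limma log2 1.59 ± 0.20 (SE), 95% interval 1.17 to 2.01, adjusted p = 0.0026) and 2.45-fold at X-ray 4h (1.29 ± 0.20, interval 0.87 to 1.71, adjusted p = 0.00319). Adjusted p-values are Benjamini-Hochberg values over all 18334 genes, and 0.05 was the threshold. The background was small: 0.0491% of the genes passed at X-ray 1h (8 rose, 1 fell) and 0.567% at X-ray 4h (96 rose, 8 fell). By the size of the log2 ratio PLK3 was the 2nd highest gene at X-ray 1h and the 5th highest at X-ray 4h. The call at X-ray 1h held without any 1 array (limma adjusted p from 0.000206, without C12 4h replicate 4, to 0.0441). Without replicates 1 to 4 of X-ray 1h itself, in turn, the adjusted p was 0.0413, 0.0441, 0.0437 and 0.00368. The call was lost in a fit without the X-ray 4h and C12 arrays (0.102) or without a dye term (0.0692). The call at X-ray 4h was lost without replicate 3 of that group (1.13, adjusted p = 0.077), without a dye term (0.059) and with array weights (1.13, adjusted p = 0.279).

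PLK2 had smaller ratios than PLK3 after X-rays and stood highest at 4h. At X-ray 4h its log2 ratio was 0.73, 0.78, 0.89 and 0.72 on replicates 1 to 4. These values lay between 0.72 and 0.89, on the same side of 0 on 4 of 4 arrays. PLK2 rose 1.72-fold in this group (limma log2 0.78 ± 0.16 (SE), 95% interval 0.45 to 1.11, adjusted p = 0.025). It was the 52nd highest gene there. The call was lost without replicate 3 of X-ray 4h (0.61, adjusted p = 0.297), without a dye term (0.516) and with array weights (0.56, adjusted p = 0.276). At X-ray 1h the ratio was 1.13, -0.23, 0.07 and 0.62 on replicates 1 to 4. Both arrays with the irradiated plate in Cy5 (replicates 1 and 4) were above both arrays with it in Cy3. The mean of 0.40 ± 0.60 (SD, n = 4) did not pass (limma interval 0.07 to 0.73, adjusted p = 1.00). It fell to 0.27 without replicate 1.

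The ratios of PLK2 varied with the dye, as did those of PLK3. The fitted dye coefficient of PLK2, the gain of a plate labelled with Cy5, was 0.36 over all arrays, 0.51 over the C12 arrays and 0.21 over the X-ray arrays. For PLK3 these were 0.33, 0.53 and 0.13, and for PLK1 0.31, 0.50 and 0.11. PLK4 had -0.03, -0.06 and 0.01. The pattern was thus not particular to PLK2. With the shared coefficient taken off, PLK2 at X-ray 4h was 0.37, 1.14, 1.25 and 0.36 on replicates 1 to 4. These values remained positive on 4 of 4 arrays, but their SD was 0.48 against 0.08 before. Within X-ray 4h alone the dye coefficient of PLK2 was -0.06, against 0.48 at X-ray 1h, 0.47 at C12 1h and 0.54 at C12 4h. Replicate 2 of X-ray 4h stood apart from the other arrays. The mean of 12 housekeeping genes, dye taken off, was 0.61 on it, against -0.28 to 0.17 on the other 15 arrays, and array weights gave it the lowest weight (0.0837). Its part in the PLK2 result was measured: without it PLK2 stood at 0.65 and passed (limma adjusted p = 0.027).

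**Figure D1:**
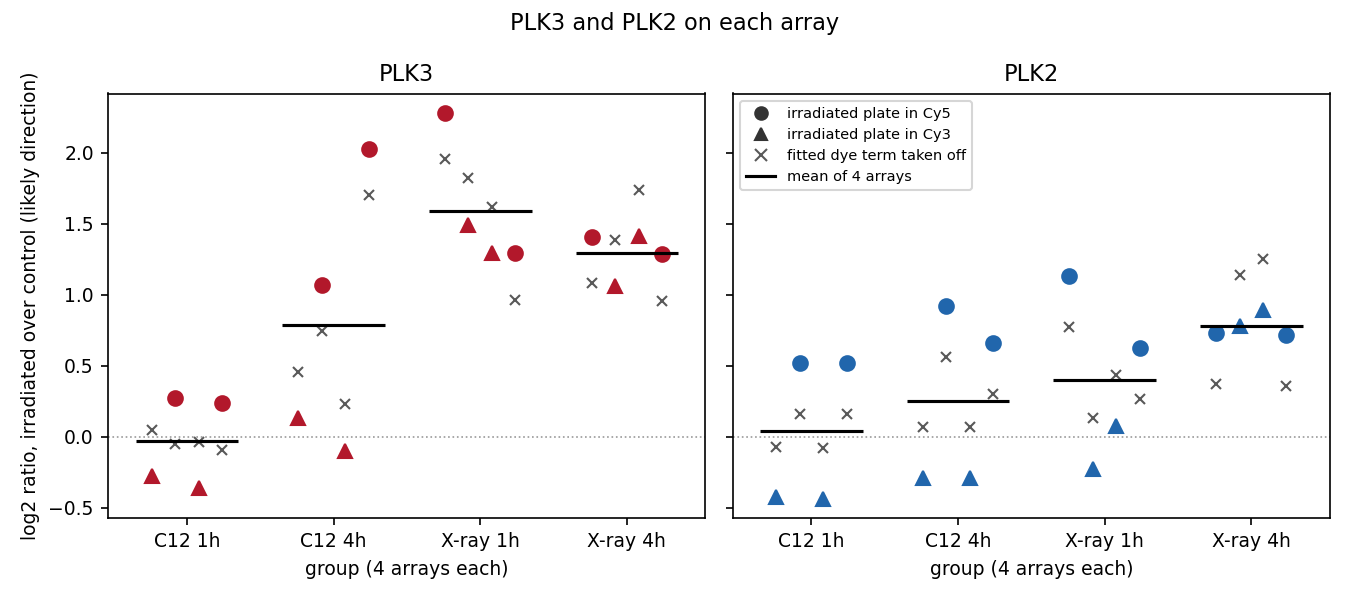
Turned log2 ratio (irradiated over control, likely direction) of PLK3 and PLK2 on each of the 16 arrays by group; circles have the irradiated plate in Cy5, triangles in Cy3, crosses show the value with the fitted dye coefficient taken off, and lines are means of 4 arrays. PLK3 is above 1 on all 8 X-ray arrays, while on the C12 arrays Cy5 values of both genes lie above Cy3 values.

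At 1h after C12 neither gene could be told from 0. PLK3 had log2 ratios of -0.28, 0.27, -0.36 and 0.24 on replicates 1 to 4, and PLK2 had -0.43, 0.52, -0.44 and 0.52. Both genes were positive on the 2 arrays with the irradiated plate in Cy5 and negative on the 2 with it in Cy3. Housekeeping genes moved the same way on these arrays, with means of -0.38, 0.49, -0.49 and 0.38. With the dye coefficient taken off, PLK3 lay between -0.09 and 0.05 and PLK2 between -0.08 and 0.16. The limma estimate was -0.03 ± 0.20 for PLK3 (95% interval -0.45 to 0.38) and 0.04 ± 0.16 for PLK2 (interval -0.28 to 0.37), each with an adjusted p of 1. In this group 0% of the genes passed in limma, and 29 had an unadjusted p under 0.05. Uniform p-values would on average put a share of 0.05 of the 18334 genes there, many more than 29. Limma p-values thus ran high here, and a lack of calls is no evidence of no response. The unadjusted counts given below for other comparisons were also under that share. The cause was not tested.

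At 4h after C12, PLK3 had a higher mean that rested on 2 arrays. Its log2 ratio was 0.13, 1.07, -0.10 and 2.03 on replicates 1 to 4, so both Cy5 arrays were above both Cy3 arrays. With the shared dye coefficient taken off, the values were 0.46, 0.74, 0.23 and 1.70, positive on 4 of 4 arrays, with replicate 4 the highest. The estimate of 0.78 ± 0.20 (limma, SE, 95% interval 0.37 to 1.20) was the 7th highest of all genes and the 5th by p (0.000979), but did not pass (adjusted p = 1.00). Only 0.0109% of the genes passed in this group. Without replicate 4 the estimate was 0.45. PLK3 passed in a fit of the C12 4h arrays alone (adjusted p = 0.000474) and with array weights (0.85, adjusted p = 0.0134). PLK2 had 0.07, 0.56, 0.07 and 0.30 with the dye taken off and -0.29, 0.92, -0.29 and 0.66 before. Its estimate of 0.25 ± 0.16 (interval -0.08 to 0.58) did not pass either (limma adjusted p = 1.00), and was the 113th highest.

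The order of the 4 group means differed between the genes. For PLK3 it was X-ray 1h (1.59), X-ray 4h (1.29), C12 4h (0.78) and C12 1h (-0.03). For PLK2 it was X-ray 4h (0.78), X-ray 1h (0.40), C12 4h (0.25) and C12 1h (0.04). No neighbours in either order differed past the threshold in limma. For PLK3 the steps were -0.30 for X-ray 4h minus 1h (interval -0.89 to 0.29, adjusted p = 1.00), -0.51 for C12 minus X-ray at 4h (interval -1.10 to 0.08, adjusted p = 1.00) and 0.82 for C12 4h minus 1h (interval 0.23 to 1.41, adjusted p = 1.00). For PLK2 they were 0.38 for X-ray 4h minus 1h (interval -0.08 to 0.84), -0.15 for C12 4h minus X-ray 1h (interval -0.61 to 0.31) and 0.21 for C12 4h minus 1h (interval -0.26 to 0.67), each with an adjusted p of 1.00. In each of these comparisons 0% of the 18334 genes passed. The comparison of C12 4h with X-ray 1h was chosen after the values were seen, and 142 genes had an unadjusted p under 0.05 in it.

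The widest gap between the qualities was that of PLK3 at 1h. The C12 1h arrays (-0.36 to 0.27) and the X-ray 1h arrays (1.29 to 2.28) did not overlap. C12 minus X-ray was -1.62 ± 0.28 in limma (SE, 95% interval -2.21 to -1.03), the 2nd lowest of all genes and the 2nd by p, and it did not pass (adjusted p = 0.178). No gene passed there, 0% of 18334, and 146 had an unadjusted p under 0.05. An exact two-sided permutation test of the 4 against 4 arrays gave p = 0.0286, the smallest this design allows, and 0.114 after adjustment over the 4 tests of both genes and times. Permuted only within dye, a test chosen after the values were seen, the exact p was 0.0556, the smallest of its 36 arrangements. As deposited, the X-ray 1h arrays read -2.28, -1.49, 1.29 and 1.29, on both sides of the C12 1h arrays (-0.36 to 0.28). The gap, its rank and these p-values thus rest on the sign rule, which was chosen with PLK3 in its list. They are not independent evidence. The difference passed with 1 dye coefficient per quality (limma adjusted p = 0.0159) and without replicate 4 of C12 4h (0.0188). PLK2 differed by -0.36 ± 0.22 at 1h (interval -0.82 to 0.10) and did not pass (limma adjusted p = 1.00, exact permutation p = 0.429). Permuted within dye, its exact p was also 0.0556, so this test does not set PLK3 apart from PLK2.

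At 4h the ranges of C12 and X-ray arrays overlapped for both genes. C12 minus X-ray was -0.51 ± 0.28 for PLK3 and -0.53 ± 0.22 for PLK2 (interval -0.99 to -0.07). Neither passed in limma (adjusted p = 1.00 for each), where 0% of the genes passed and 329 had an unadjusted p under 0.05. The exact permutation p was 0.343 for PLK3 and 0.229 for PLK2, and within dye it was 0.222 for each. The change with time also did not differ past the threshold between qualities. For PLK3, 4h minus 1h was 1.11 ± 0.40 higher after C12 than after X-rays (limma interval 0.28 to 1.95, unadjusted p = 0.0118, adjusted p = 1.00), the 3rd highest value of all genes. For PLK2 that difference was -0.17 ± 0.31. Between the times 0% of the genes passed for either quality. An unadjusted p under 0.05 was had by 24 genes for C12 and by 645 for X-rays. In the test of the change with time 0% passed, and 137 had an unadjusted p under 0.05.

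**Figure D2:**
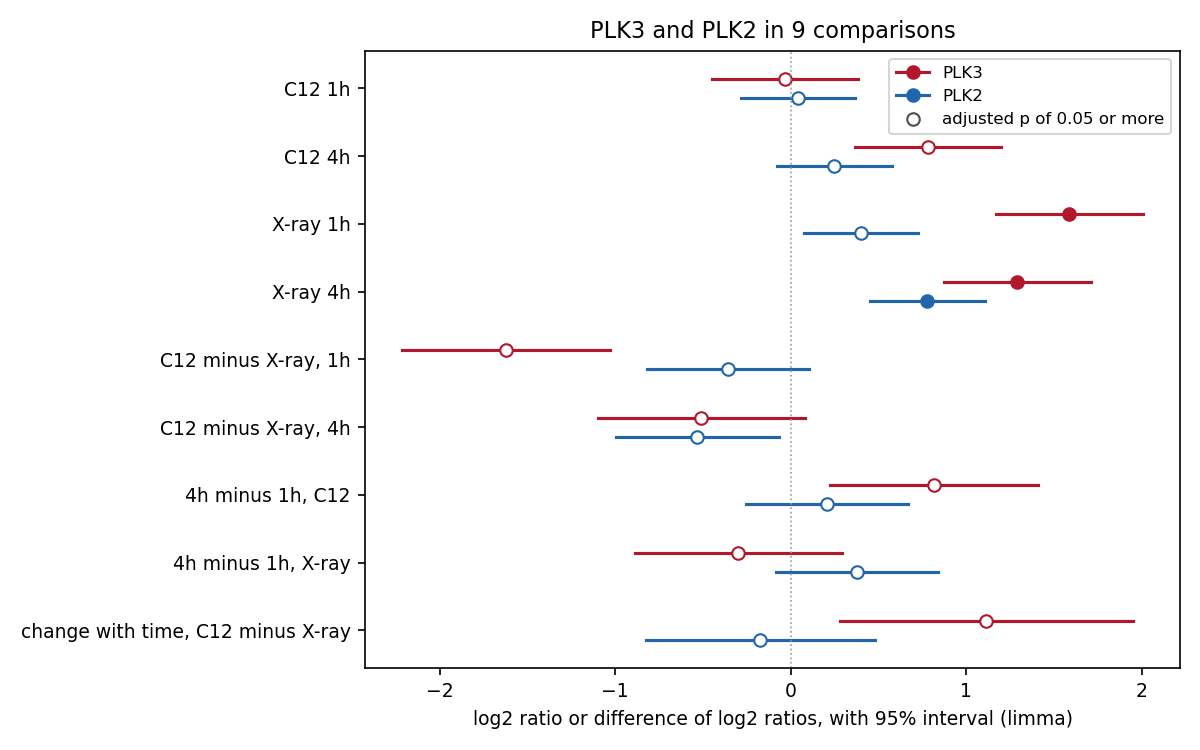
Limma estimates (log2 ratio of a group, or difference of log2 ratios) with 95% intervals for PLK3 and PLK2 in 9 comparisons; filled points have an adjusted p under 0.05. The 3 filled points are PLK3 at X-ray 1h (1.59) and X-ray 4h (1.29) and PLK2 at X-ray 4h (0.78).

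On each X-ray array the ratio of PLK3 was larger in size than that of PLK2, whichever sign the array is given. PLK3 minus PLK2, in which any effect common to both genes on an array cancels, was 1.15, 1.72, 1.22 and 0.67 on replicates 1 to 4 of X-ray 1h. At X-ray 4h it was 0.68, 0.28, 0.52 and 0.57. All 8 turned differences were positive, with a mean of 0.85 ± 0.47 (SD, n = 8), while as deposited those of replicates 1 and 2 are negative. Their common sign thus rests on the sign rule, which was chosen with PLK3 in its list. An exact two-sided sign-flip permutation test over the 8 arrays gave p = 0.0078, the smallest it can give, and 0.0469 after adjustment over 6 such tests, and for that reason these are not independent evidence. With 1 of the 8 arrays left out the adjusted exact p was 0.0938, as 7 arrays cannot give less. At C12 4h the difference was 0.43, 0.15, 0.19 and 1.37 (mean 0.53, 4 of 4 positive). At C12 1h it was 0.15, -0.25, 0.08 and -0.28, with no common sign (mean -0.08). This sets ratios of 2 genes side by side, not their levels.

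Of the other measured family members, PLK1 fell 4h after X-rays and PLK4 did not pass in any group. PLK1 (Entrez gene 5347) fell 4h after X-rays by 0.86 ± 0.15 on the log2 scale (limma adjusted p = 0.0107), and was negative on 4 of 4 arrays (-1.07 to -0.46). Both of its features fell, by 0.90 and 0.82. The call was lost without replicate 3 (adjusted p = 0.0849) or 4 (0.0815) of X-ray 4h. In the other groups PLK1 had -0.17 at X-ray 1h, -0.14 at C12 4h and 0.01 at C12 1h, none of which passed. PLK4 (Entrez gene 10733) had -0.31 ± 0.13 at X-ray 4h (limma adjusted p = 0.596) and between -0.07 and 0.08 in the other 3 groups. PLK5, the remaining member, had 0 features annotated to it alone and so was not measured.

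**Figure D3:**
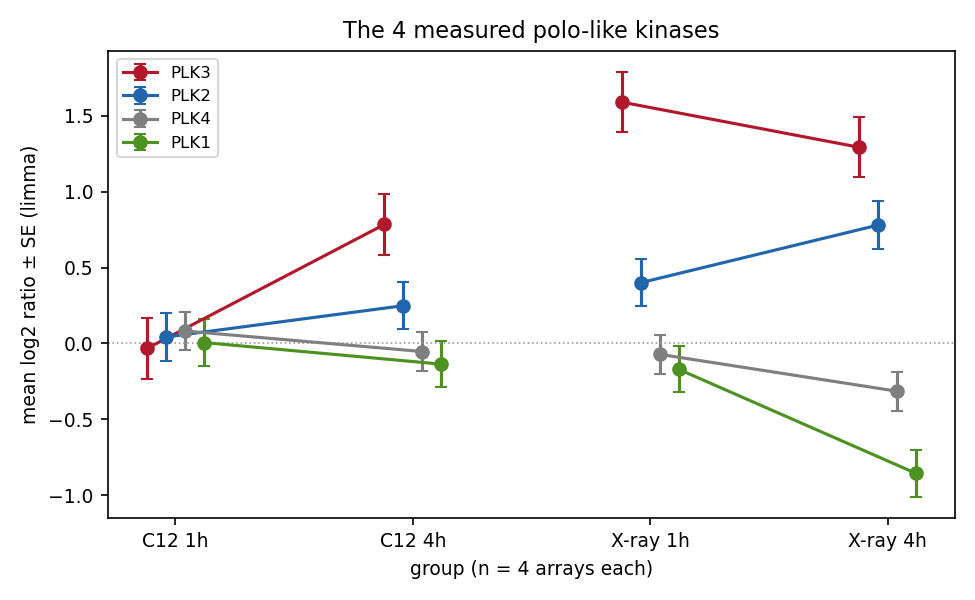
Limma mean log2 ratio ± SE (n = 4 arrays) of PLK3, PLK2, PLK4 and PLK1 in the 4 groups, lines joining the times of a quality. At X-ray 4h PLK3 (1.29) and PLK2 (0.78) lie above 0 and PLK1 (-0.86) below.

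Known p53 targets other than PLK2 and PLK3 were listed as the genes of the pathway, and 30 of 32 were measured. At X-ray 4h, 19 rose, 0 fell and 11 did not pass, with a list median of 0.84 against 0.00 for all genes, so that PLK2 (0.78) lay near the middle of the list and PLK3 (1.29) in its upper part. The 19 included CDKN1A (1.45), which encodes the p21 inhibitor of cyclin-dependent kinases, the cytokine gene GDF15 (1.74), the ceramidase gene ACER2 (1.41) and the DNA damage recognition genes XPC (1.03) and DDB2 (0.94). At X-ray 1h, 7 rose: SESN2 (0.85), BBC3 (0.88), which encodes the cell death protein PUMA, SERTAD1 (0.94), CDKN1A (1.03), PPM1D (1.32), GADD45A (1.53) and GDF15 (1.76), with a list median of 0.30. PLK3 at 1.59 lay between GDF15 and GADD45A there. At C12 4h, CDKN1A (1.12) and BBC3 (0.78) rose, with a median of 0.22, and at C12 1h none passed (median 0.01). Over all 18334 genes 0.567% passed at X-ray 4h (96 rose, 8 fell) and 0.0491% at X-ray 1h (8 rose, 1 fell). The shares were 0.0109% at C12 4h (2 rose, 0 fell) and 0% at C12 1h. This list holds genes on which the sign of the ratios was chosen, so its direction and its counts are not independent evidence. Leaving out 1 array gave 6 to 20 members that rose at X-ray 4h (6 without replicate 3), 2 to 8 at X-ray 1h (2 without replicate 2 or 3) and 0 to 2 at C12 4h. Without replicate 2 of X-ray 4h, 20 rose and 1 fell in that group.

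Immediate early genes are the class in which PLK2 and PLK3 were first described. Of 24 listed, 23 were measured, and 0 passed in limma in any of the 4 groups. As 0.0491% of all genes passed at X-ray 1h, 0.567% at X-ray 4h, 0.0109% at C12 4h and 0% at C12 1h, a count of 0 is near the background and is no result about this list. Their medians were 0.04 at X-ray 4h, -0.01 at X-ray 1h, 0.05 at C12 4h and -0.01 at C12 1h. At X-ray 1h, where PLK3 was at 1.59, FOS had -0.31, FOSB 0.13, FOSL1 0.33, JUN -0.41, JUNB -0.05 and EGR1 -0.12, all genes of early transcription factors, and the stress gene ATF3 had 0.25. At X-ray 1h, the estimate of KLF6 (-0.42 ± 0.11) had the smallest unadjusted p of this list (0.00105; limma adjusted p = 0.910). KLF6 was named after its value was seen.

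The damage signalling kinases and p53 regulators gave 1 call at each X-ray time. Over all 18334 genes 0.0491% passed at X-ray 1h and 0.567% at X-ray 4h. The gene called, PPM1D, is also on the list of p53 targets above, so its calls are the same ones and carry the same limit. Of 12 measured members of 13, PPM1D, the phosphatase that switches off p53 and checkpoint kinases, rose at X-ray 1h (1.32) and at X-ray 4h (1.07). The remaining 11 did not pass, among them ATM (0.08 and 0.02), ATR (0.41 and 0.03), PRKDC (0.03 and 0.30), CHEK1 (0.04 and -0.34), CHEK2 (-0.07 and -0.34) and TP53BP1 (-0.02 and 0.16), as limma log2 ratios at X-ray 1h and 4h. MDM2, the ubiquitin ligase gene of p53, named after its values were seen, had 0.12 and 0.43 (adjusted p = 0.246 at 4h). The list medians were 0.06 and 0.10, and none passed after C12. Without replicate 3 of X-ray 4h, PPM1D missed the threshold there (adjusted p = 0.0583), and without replicate 2 of that group 2 members rose and 2 fell.

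Among reported partners and substrates of PLK2 or PLK3, 13 of 17 were measured. Over all 18334 genes 0.567% passed at X-ray 4h, where 96 rose and 8 fell. At X-ray 4h 1 fell, CDC25C (-0.72 ± 0.14, limma adjusted p = 0.0212), which encodes a phosphatase that activates cyclin B and its kinase at mitotic entry and is phosphorylated by PLK3. The list median was -0.18 in that group and within 0.05 of 0 in the other 3, where none passed. Of 16 mitotic entry genes of the PLK1 circuit, all measured, 4 fell at X-ray 4h: PLK1, CDC25C, the kinase gene AURKA (-0.74) and the cyclin gene CCNB1 (-0.83), with a list median of -0.58. None passed in the other groups, whose medians lay between -0.07 and -0.01. These falls moved with single arrays: without replicate 2 of X-ray 4h, 13 mitotic genes, 5 partners and 4 of the 12 housekeeping genes fell, and without replicate 3 or replicate 4 none of the mitotic genes passed. Without replicate 1 PLK1 alone passed, and AURKA passed in 3 of 16 fits with 1 array left out.

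**Figure D4:**
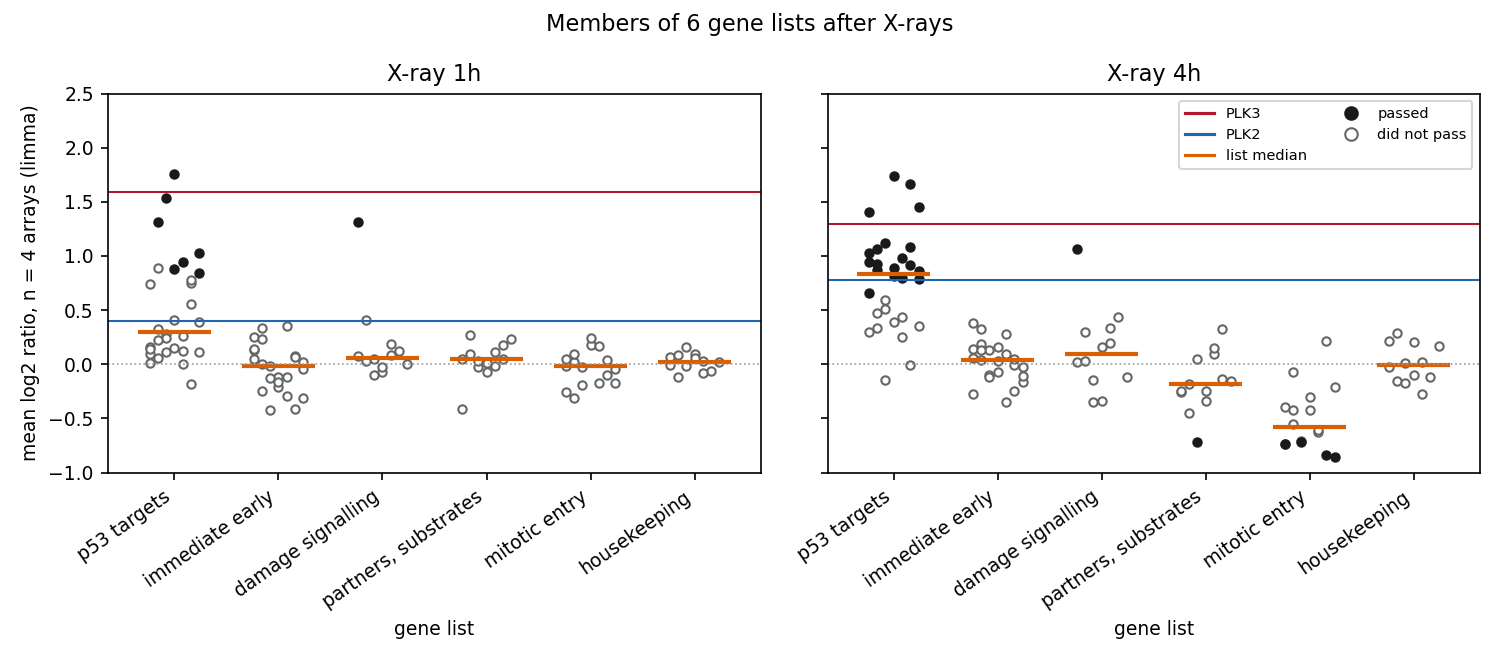
Limma mean log2 ratio (n = 4 arrays) of each measured member of 6 gene lists at X-ray 1h and X-ray 4h; filled points passed, orange bars are list medians, and red and blue lines mark PLK3 and PLK2. PLK3 lies above every immediate early, damage signalling and housekeeping gene at both times, and the immediate early medians are -0.01 and 0.04.

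The genes whose ratios ran most like those of PLK3 over the 16 arrays were PPM1D (Pearson r = 0.94), GADD45A (0.92), a growth arrest gene, SERTAD1 (0.85), SESN2 (0.85), which encodes a sestrin, and ATF3 (0.84). The lowest were MMP13 (-0.85) and SIX3 (-0.82). The first 4 rose at both X-ray times, with PPM1D at 1.32 and 1.07 and GADD45A at 1.53 and 1.12 (limma adjusted p from 0.00180 to 0.0361). These 4 are also on the list of p53 targets above. Neither their rise nor their likeness to PLK3 over turned arrays is thus independent of the sign rule. ATF3 did not pass in any group. Arrays share the dye pattern, and the values of PLK3 correlated with the dye code at 0.41. With a dye coefficient for each quality taken off, chosen after the values were seen, PPM1D (0.92), GADD45A (0.92) and ATF3 (0.83) remained among the 5 highest, joined by ELF3 (0.85) and ZNF79 (0.83).

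For PLK2 the genes most alike were CLP1 (0.96), NKX2-5 (0.95), TNS4 (0.94), TCP11L1 (0.94) and LRRC23 (0.94), and the lowest were KCNE3 (-0.93) and PZP (-0.93). The ratios of the 5 highest followed the dye (correlation with the dye code 0.66 to 0.76) as that of PLK2 did (0.69). Those of KCNE3 (-0.75) and PZP (-0.65) ran against it. Only NKX2-5 passed in any group, with a rise of 0.76 at X-ray 4h (limma adjusted p = 0.0117). With the dye taken off, CLP1 (0.91) and TCP11L1 (0.90) stayed among the 5 highest, beside DEPDC7 (0.91), the autophagy gene DRAM1 (0.90) and RIMBP3 (0.89). DEPDC7 rose by 0.82 at X-ray 4h (adjusted p = 0.00129). PLK2 and PLK3 correlated with each other at 0.71 over the turned values and at 0.61 with the dye taken off. These correlations describe 16 arrays in 4 groups, and genes were chosen by them.

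**Figure D5:**
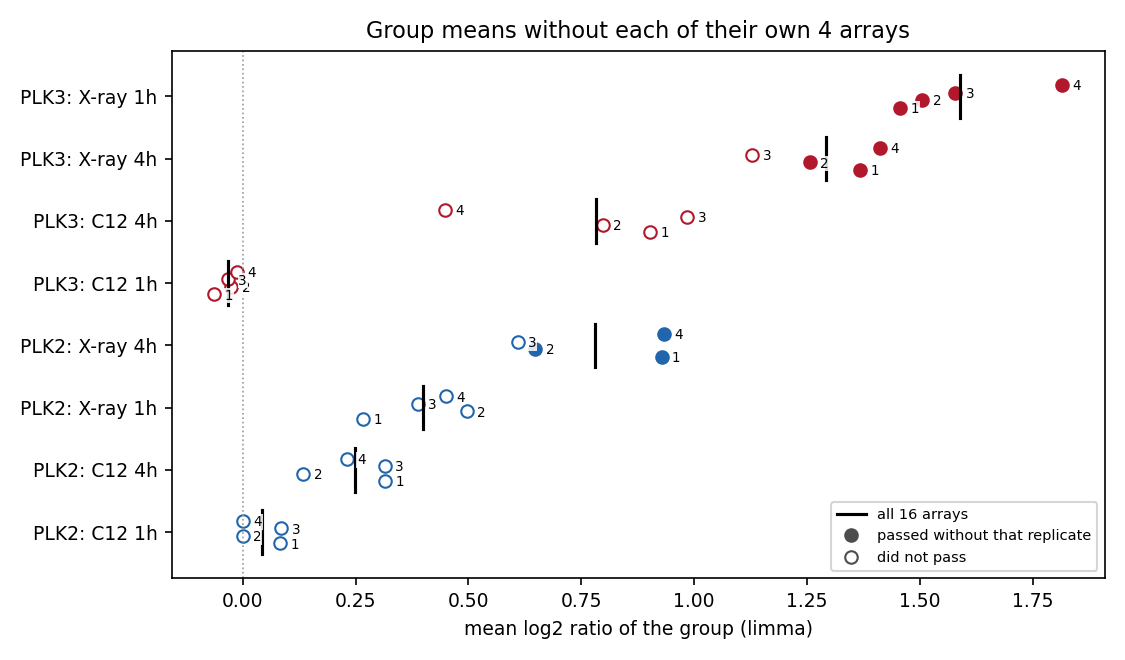
Limma mean log2 ratio of each group for PLK3 and PLK2 with each of its own 4 arrays left out in turn (the number beside a point is the replicate left out); black bars are the values with all 16 arrays and filled points have an adjusted p under 0.05. PLK3 at X-ray 1h passes in all 4 cases (1.46 to 1.82), and both genes at X-ray 4h miss the threshold without replicate 3.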

How the data were processed

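The values are log2 ratios as the authors deposited them, 1 for each of 45220 features on each array, and 0 were missing. Per the submitters' processing notes limma was used, with no version. How background and dyes were corrected, the base of the log and the direction are not given in sources used here. Base 2, limma's default, was assumed. On every array the SD was 0.4142 to 0.4143 and the median -0.0415 to -0.0391, so the arrays had been brought to nearly the same distribution. The size of a ratio is therefore relative to that common spread. Fold changes and differences between C12 and X-rays carry this limit. As no signals were used, precision is limited by the number of arrays.

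A table of the platform's annotation gave 1 symbol for 31332 features (93 had several, 13795 none), with 31291 updated through Entrez identifiers. Features of a gene were averaged, which for PLK2 and PLK3 changes nothing. Limma 3.58.1 with statmod 1.5.0 in R 4.3.3 fitted 4 group means and 1 dye coefficient to all 16 arrays, so a gene has 1 standard error in every group. Exact permutation tests used SciPy 1.17.1 in Python 3.11.15. The calculations were tested on simulated data. The members, the 7 gene lists and the sign rule were chosen with earlier results of these data known. Named were the family, list members that passed, up to 6 others per list in list order, and the 5 most and 2 least alike genes per member. Alternatives were the dye term, the arrays fitted, the replicate block, weights, centring, the feature summary, a filter on spread and each array left out.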

Additional observations from a re-analysis of the deposited data

How the results depend on the processing

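Of 480 estimates for PLK2 and PLK3 with 1 array left out, 469 kept their direction and their side of the threshold, 10 lost a call and 1 gained one. Of 246 under other settings, 223 kept both, and of 270 counts of called genes 225 stayed within 1.5 times. Most of these results had no call to lose, and most of the counts were 0 in the main fit. Leaving out an array of another group also left an estimate unchanged. These shares were thus largely fixed in advance and say little about stability. Without a dye term PLK3 at X-ray 1h (1.59, limma adjusted p = 0.0692) and X-ray 4h (1.29, 0.059) and PLK2 at X-ray 4h (0.78, 0.516) lost their calls, and counts fell to 0 genes at C12 4h, 0 at X-ray 1h and 21 at X-ray 4h. With 1 dye coefficient per quality PLK3 gained a call for C12 minus X-ray at 1h (-1.62, 0.0159), and 16 genes passed at X-ray 1h, 221 at X-ray 4h, 6 for C12 minus X-ray at 1h and 3 for X-ray 4h minus 1h. With 1 per group, chosen after seeing the data, that call held (-1.62, 0.00861) and the counts were 16, 204, 6 and 3. With only the groups compared, PLK3 gained a call at C12 4h (0.78, 0.000474) and lost that at X-ray 1h (1.59, 0.102), and 26 genes passed at C12 4h, 1 at X-ray 1h, 2 for C12 minus X-ray at 1h and 2 for C12 4h minus 1h. With array weights PLK3 passed at C12 4h (0.85, 0.0134), PLK3 (1.13, 0.279) and PLK2 (0.56, 0.276) lost X-ray 4h, the difference of PLK2 in the change with time turned to 0.16 (0.928), and 14 genes passed at C12 4h, 2 at X-ray 4h and 3 for C12 4h minus 1h. At C12 4h 1 gene passed after centring on the median, with the median of the features, without the genes of lower spread and with a fixed replicate block, and 0 after centring on housekeeping genes, which left 3 at X-ray 1h. Without the genes of lower spread 60 passed at X-ray 4h.

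Ratios as deposited gave PLK3 -0.298 at X-ray 1h and 0.0564 at X-ray 4h, and PLK2 -0.0022 at C12 1h, -0.0658 at C12 4h, -0.0514 at X-ray 1h and 0.0236 at X-ray 4h. Turned by the dye of the irradiated plate, PLK3 had 0.0117 at C12 1h, -0.197 at X-ray 1h and -0.118 at X-ray 4h, and PLK2 -0.0661 at C12 4h, -0.201 at X-ray 1h and -0.0305 at X-ray 4h. None of these passed. Both readings average arrays that the sign rule turns against each other.

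With each array left out, PLK3 ranged from 1.13 to 1.41 and PLK2 from 0.61 to 0.93 at X-ray 4h, both lost without replicate 3. PLK3 ranged from -1.85 to -1.49 for C12 minus X-ray at 1h, and passed without C12 4h replicate 4. PLK3 minus PLK2 over X-ray arrays ranged from 0.73 to 0.93. Counts ran from 0 to 2 genes at C12 4h, 3 to 10 at X-ray 1h, 15 to 1322 at X-ray 4h (15 without replicate 3, 61 without 1, 1322 without 2), 0 to 1 for C12 minus X-ray at 1h and 0 to 563 for X-ray 4h minus 1h (563 without X-ray 4h replicate 2). The residuals of same-numbered arrays correlated at -0.643 to 0.671, over 0.1 in 12 of 24 pairs, and the labels speak of independent cultures. Between C12 1h and C12 4h all 4 same-numbered pairs did so (0.553 to 0.660), but these share their dye. Differently numbered C12 pairs of the same dye had 0.586 to 0.694, and with 1 dye coefficient per quality the same-numbered pairs had -0.312 to -0.136, so the numbers were not taken to pair the arrays. In a replicate block of the C12 arrays only, chosen after seeing the data, C12 4h minus 1h was 0.82 for PLK3 (interval 0.23 to 1.41) and 0.21 for PLK2 (interval 0.04 to 0.37), each with a limma adjusted p of 1.00, and 0 genes passed (815 with an unadjusted p under 0.05). The replicate block changed no call of PLK2 or PLK3 (PLK3 at X-ray 1h 1.59, adjusted p = 0.0112 fixed and 0.0049 random), and 1 gene passed for X-ray 4h minus 1h with it as a random block. Settings on dim features and on background correction were not run, as they need signals. The causes of these changes were not tested.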

Other observations

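At C12 4h, the genes most like PLK3 were spread over the arrays in their own ways. With the shared dye coefficient taken off, GADD45A had log2 ratios of 0.79, 1.22, 0.17 and 1.51 on replicates 1 to 4, highest on replicate 4 as PLK3 was (1.70). PPM1D had 0.26, 1.15, 0.14 and 0.87, highest on replicate 2, as PLK2 was (0.56). CDKN1A (1.22, 1.35, 0.80 and 1.12) and BBC3 (0.80, 0.88, 0.74 and 0.71), which rose in this group, were more even. PLK3, PPM1D, GADD45A, CDKN1A and SESN2 (0.01) were each lowest on replicate 3. BBC3 was lowest on replicate 4 and SERTAD1 (-0.06) on replicate 1, and PLK2 had 0.07 on replicates 1 and 3. The cause was not tested.

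The fitted dye coefficient of PLK3 was 0.77 within C12 4h, against 0.29 within C12 1h, 0.20 within X-ray 1h and 0.06 within X-ray 4h. The root mean square residual of PLK3 over C12 arrays was 0.399, and over X-ray arrays it was 0.343. For the median gene these were 0.181 and 0.299, and for PLK2 0.166 and 0.340.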
